A study of Mus musculus with 12 samples.

Results

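10 genes of the NF-kB pathway were followed in whole subcutaneous tumours: the factor genes Nfkb1, Nfkb2 and Relb, the feedback regulators Nfkbia, Tnfaip3 and Birc3, the adhesion target Icam1, and the cytokines Tnf, Il1a and Il1b. They were chosen by gene symbol, with earlier results of these data known. Of them, 10 of 10 were found among the 45777 genes of the count table and among the 17885 genes tested. The tumours grew from 393P cells, a mouse lung cancer line, injected under the skin of the flank of male 129S2/SvPasCrl mice aged 8 weeks. In 3 libraries the injected cells were MAVS reconstituted and the mice received the MPS1 inhibitor BAY-1217389, at 5 mg/kg, 2 times a day for 2 days, with tumours taken on the following day. In 3 libraries the cells were MAVS reconstituted and the treatment was control, named vehicle in the sample titles. In 3 libraries the cells were MAVS knockout and received the inhibitor, and in 3 they were MAVS knockout with control treatment. The sample titles of the knockout libraries carry the word Luc, which they do not explain, and the labels do not say whether the lines were single clones. The series asked which expression changes after a pulse of MPS1 inhibition depended on MAVS. The labels call the libraries replicates without saying that each came from its own mouse, so p-values measure the spread between these libraries.

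NF-kB factors are dimers that rest in the cytoplasm, held by inhibitor proteins such as IkB alpha, until a receptor or sensor activates the IkB kinases. MAVS is a mitochondrial adaptor of the cytosolic RNA sensors RIG-I and MDA5, and it activates both interferon regulatory factors and the IkB kinases. Many target genes encode brakes on the same pathway, so that IkB alpha and A20 are remade as the signal runs, while others encode cytokines and adhesion molecules that act on neighbouring cells. MPS1, encoded by Ttk, is a kinase of the spindle checkpoint, and its inhibition makes dividing cells missegregate chromosomes.

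Upstream windows are shown for the members that had an unadjusted p below 0.05 in any comparison and a window in the RefSeq promoter table (GRCm38.p6, from the C57BL/6J strain and not from 129 mice). A window was matched for 8 of the 10 members, and each sequence below gives the 250 bases before the annotated start, 5′ to 3′ on the gene's strand. Capitals mark matches of the 10-base kappaB consensus, the DNA element that NF-kB dimers bind, searched on both strands. The letters were GGGRNWYYCC, where R is A or G, W is A or T, Y is C or T and N is any base.
Nfkbia, chr12:55492648-55492897, minus strand: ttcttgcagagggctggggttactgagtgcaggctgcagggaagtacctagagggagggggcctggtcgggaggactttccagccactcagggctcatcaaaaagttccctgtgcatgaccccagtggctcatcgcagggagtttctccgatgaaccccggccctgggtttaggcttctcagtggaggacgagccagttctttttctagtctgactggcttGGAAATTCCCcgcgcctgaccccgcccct
Tnfaip3, chr10:19015411-19015660, minus strand: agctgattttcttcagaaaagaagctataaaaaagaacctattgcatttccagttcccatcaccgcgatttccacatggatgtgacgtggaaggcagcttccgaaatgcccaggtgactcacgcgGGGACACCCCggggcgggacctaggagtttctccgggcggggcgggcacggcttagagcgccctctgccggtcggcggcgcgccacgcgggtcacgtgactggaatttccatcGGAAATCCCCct
Icam1, chr9:21015690-21015939, plus strand: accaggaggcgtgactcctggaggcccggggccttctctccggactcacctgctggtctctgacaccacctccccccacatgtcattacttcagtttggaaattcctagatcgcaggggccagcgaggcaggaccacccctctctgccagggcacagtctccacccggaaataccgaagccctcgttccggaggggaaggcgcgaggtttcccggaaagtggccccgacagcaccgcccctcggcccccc
Tnf, chr17:35202008-35202257, minus strand: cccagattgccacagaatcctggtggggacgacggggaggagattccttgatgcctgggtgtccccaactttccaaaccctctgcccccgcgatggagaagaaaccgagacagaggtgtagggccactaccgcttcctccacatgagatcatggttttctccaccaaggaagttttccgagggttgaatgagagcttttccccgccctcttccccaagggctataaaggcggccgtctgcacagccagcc
The window of Nfkbia held 1 match, beginning 29 bases before the start. That of Tnfaip3 held 2, beginning 125 and 12 bases before it, and a second annotated start of Tnfaip3 held none. Windows of Nfkb2 held matches at each of its 3 annotated starts. No match to these letters lay in the windows of Icam1, Tnf, Birc3, Il1a or Il1b. A match was present in 3 of 8 members, beside 4.46% of the 27025 genes with a window and 3.90% of all 32851 windows. These are matches of letters in 1 window length, not measured binding sites. An element that departs from these letters was not marked, so a window without a match can still hold one.

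Libraries held 52983715 to 69108411 counts. The least abundant member reading was 113 counts, for Tnf, while a floor of 3 counts corresponded to 0.0422 to 0.0593 CPM (counts relative to the library's TMM-adjusted total). Mavs itself had 50.1, 53.8 and 62.8 CPM in reconstituted inhibitor libraries and 85.1, 68.9 and 59.1 CPM in reconstituted control libraries. In knockout tumours Mavs had 43.5, 39.4 and 41.0 CPM with the inhibitor and 40.5, 42.5 and 45.7 CPM with control treatment. All 6 reconstituted libraries lay above all 6 knockout libraries, and averaged over treatments Mavs was higher by 0.58 ± 0.09 on the log2 scale (SE; edgeR adjusted p = 0.0105). Mavs transcripts were thus still counted in knockout tumours. The RNA of host cells and of the edited locus cannot be told apart in them. Ttk lay between 15.2 and 22.5 CPM in every library.

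Of the epithelial markers, Epcam and Cdh1 were present at group means of 139 to 182 and 206 to 229 CPM. Cldn7 had no count, and Esrp1 lay near the floor, at group means of 0.026 to 0.058 CPM. Of 6 markers of the lung epithelial lineage, Nkx2-1, Sftpc, Sftpa1 and Foxa2 had no count in any library. Replicate 1 of the reconstituted inhibitor group stood apart. Its score on the first principal component of all genes (28.5% of the variance) was -103, against -28.7 to 48.6 in the other 11. Its 8 skeletal muscle markers summed to 2542 CPM, against 1.55 to 710 CPM elsewhere, and its 9 fibroblast and pericyte markers to 2894 CPM, against 6951 to 18105 CPM. Its 9 epithelial markers summed to 10131 CPM, against 6397 to 8192 CPM, and its 10 macrophage and monocyte markers to 3576 CPM, against 1964 to 2744 CPM. Most of the members' differences that it entered are therefore given with and without it, whereas levels, ranges and the most similar genes are given over all 12 libraries. In pieces of whole tumour, fewer cells of a type and less RNA per cell cannot be told apart.

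Per kilobase of exon, Nfkbia was the most abundant member, with a mean of 67.6 CPM per kb over 12 libraries. Nfkb2 followed with 26.8, Il1b with 18.8, Nfkb1 with 11.8 and Relb with 10.5 CPM per kb. Lower levels were found for Tnfaip3 at 8.55, Icam1 at 6.03 and Birc3 at 4.78 CPM per kb. Il1a and Tnf were lowest, at 2.02 and 1.92 CPM per kb. In this order of levels, only Nfkbia was separated from Nfkb2, and Birc3 from Il1a, by ranges over the 12 libraries that did not overlap. The other neighbours overlapped. The factors were the steadiest: from the lowest to the highest library Nfkb2 varied 1.21-fold, Nfkb1 1.35-fold and Relb 1.43-fold. Il1a, Tnf and Icam1 varied most, 3.67-fold, 3.43-fold and 3.15-fold.

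**Figure D1:**
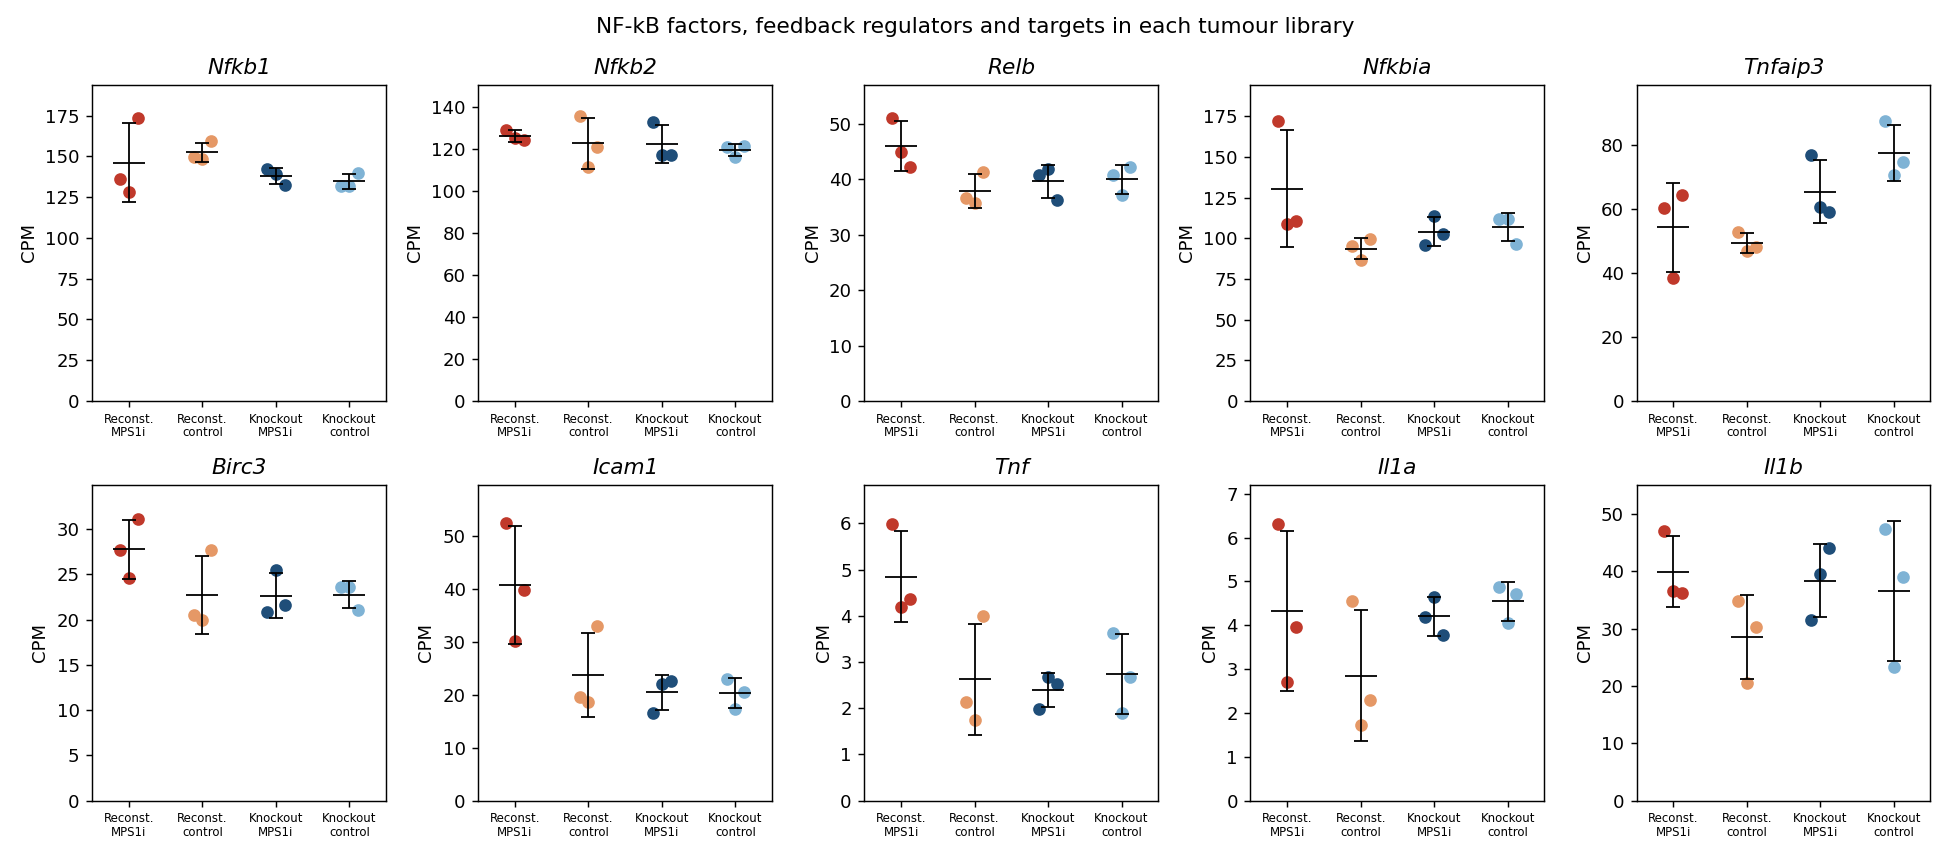
CPM of each of the 10 genes (y axes, linear from 0) in the 4 groups of 3 libraries. Points are libraries in the order of replicate numbers, and bars give mean ± SD. In the panels of Tnf and Icam1 the inhibitor-treated reconstituted group has the highest mean, at 4.85 and 40.8 CPM, while Tnfaip3 has its highest mean, 77.7 CPM, in knockout control tumours.

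None of the 10 members passed an adjusted p of 0.05 in any comparison (edgeR quasi-likelihood test, Benjamini-Hochberg adjustment over all 17885 genes). The background calls were few as well. For the inhibitor against control, 0% of genes were called in reconstituted tumours, 0% in knockout tumours and 0% averaged over genotypes. For reconstituted against knockout, 0.649% were called under the inhibitor, 0.14% in control tumours and 1.56% averaged over treatments. The difference between the inhibitor effects of the genotypes (the interaction) was called for 0% of genes. At an unadjusted p below 0.05, 4 members and 5827 genes (32.6%) differed between inhibitor and control in reconstituted tumours, against 0 members and 305 genes (1.71%) in knockout tumours. For reconstituted against knockout, these counts were 2 members and 3523 genes (19.7%) under the inhibitor and 1 member and 3352 genes (18.7%) in controls, and 2 members and 2700 genes (15.1%) averaged over treatments. For the interaction they were 3 members and 4421 genes (24.7%), and for the inhibitor averaged over genotypes 1 member and 1399 genes (7.82%).

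The comparison of inhibitor with control in reconstituted tumours had the most members below that unadjusted p. There 9 of 10 members were positive, with a median log2 difference of 0.39, beside a median of -0.005 over all genes tested. Without replicate 1 of the reconstituted inhibitor group 9 were positive and the median was 0.23. In knockout tumours 4 of 10 were positive, with a median of -0.01, beside -0.004 over all genes. For reconstituted against knockout, 9 of 10 were positive under the inhibitor, with a median of 0.15 beside 0.010 over all genes, and 3 of 10 in controls, with a median of -0.07 beside 0.003. Without that replicate 1, 7 were positive under the inhibitor, with a median of 0.10. The groups of libraries did not overlap for 4 members in reconstituted tumours, all higher with the inhibitor, beside 29.5% of all genes in either direction. They did so for no member in knockout tumours, beside 8.73% of genes. For the interaction, 9 of 10 members were positive with a median of 0.40, beside 0.005 over all genes. Without that replicate 1, 8 were positive with a median of 0.29. The comparisons share libraries, so these are readings of the same 12 tumours and not separate observations. The members were chosen with earlier results of these data known, so the values over all genes stand beside them as description and not as a test.

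**Figure D2:**
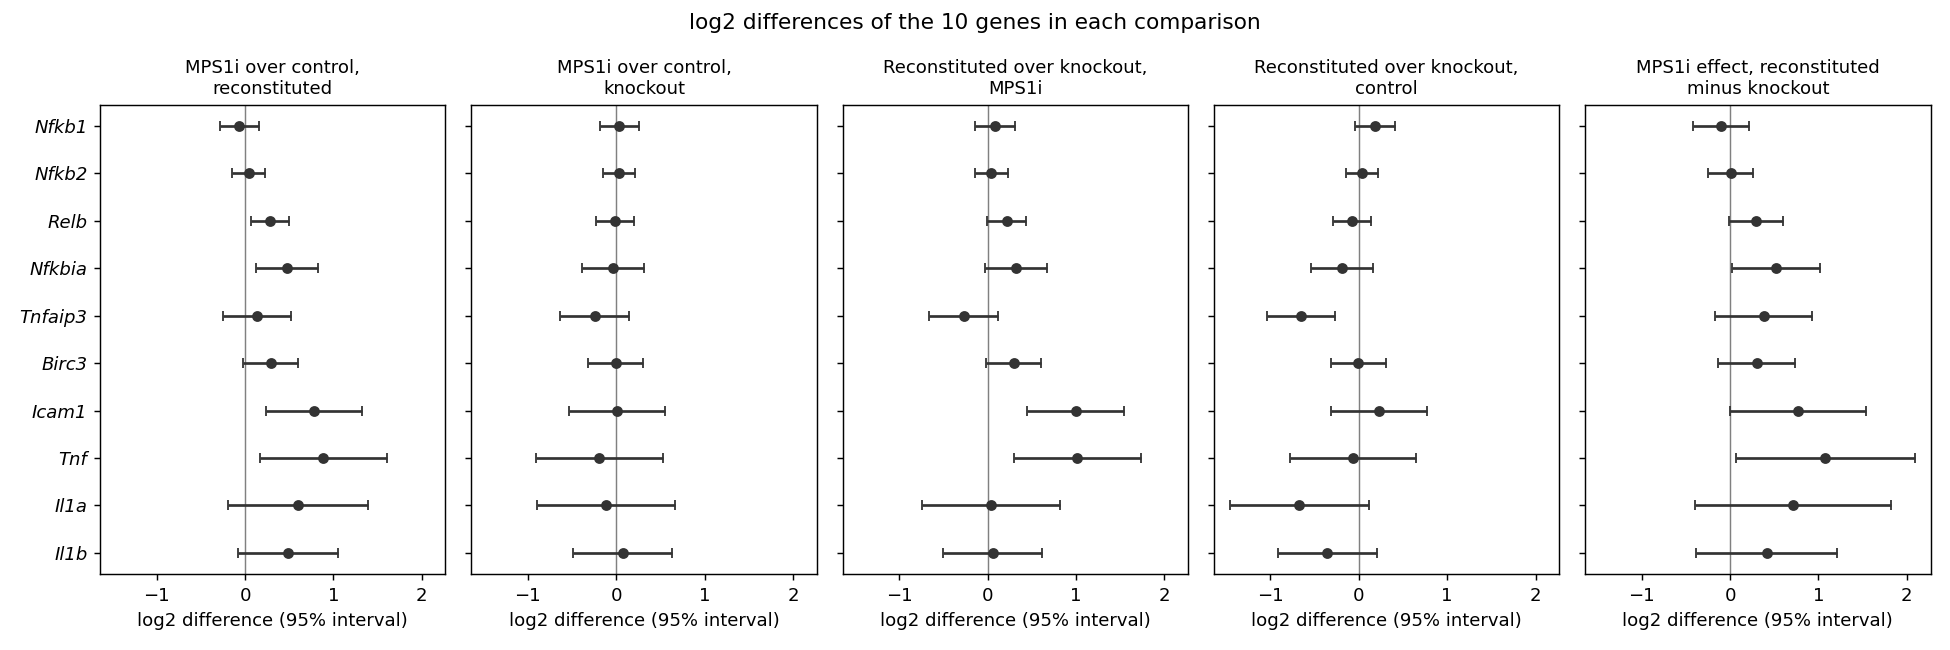
log2 differences (x axes) with their 95% intervals for the 10 genes (rows) in 5 comparisons (panels), from 1 edgeR model of 12 libraries. In the first panel the intervals of Relb, Nfkbia, Icam1 and Tnf lie above 0, while in the second, for knockout tumours, every interval spans 0. No difference passed the adjusted threshold.

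Whether members were called depended on the test. With DESeq2 in place of edgeR, 4 members were called for the inhibitor in reconstituted tumours: Icam1 (adjusted p = 0.0168), Nfkbia (0.0299), Tnf (0.0373) and Relb (0.0431). DESeq2 called 3668 of all genes (20.5%) in that comparison, where edgeR called 0. It called Icam1 (adjusted p = 0.00355) and Tnf (0.0387) for reconstituted against knockout under the inhibitor, beside 6.95% of all genes, and Tnfaip3 (0.0201) in controls, beside 4.62%. Averaged over treatments it called Tnfaip3 (0.0151) and Icam1 (0.0163), beside 5.7%. For the interaction it called no member. The log2 differences of these members moved by less than 0.01 between edgeR and DESeq2.

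The factor genes Nfkb1, which encodes the p105 precursor of p50, and Nfkb2, which encodes the p100 precursor of p52, differed little. Nfkb1 ranged from 128 to 174 CPM with the inhibitor and from 148 to 159 CPM with control in reconstituted tumours. In knockout tumours Nfkb1 ranged from 133 to 142 CPM with the inhibitor and from 132 to 140.0 CPM with control. Nfkb1 was higher in all 3 reconstituted control libraries than in all 3 knockout control libraries, with a log2 difference of 0.18 ± 0.10 (SE; edgeR adjusted p = 0.359). The inhibitor difference of Nfkb1 in reconstituted tumours was -0.06 ± 0.10 (adjusted p = 0.698), and -0.014 without replicate 1 of the inhibitor group. Without replicate 3 of the inhibitor group, its highest library, it was -0.21 and passed (adjusted p = 0.0377), in a fit that called 5683 of all genes (31%). Nfkb2 lay between 112 and 136 CPM in all 12 libraries. Its 95% intervals in both inhibitor comparisons spanned -0.15 to 0.22 on the log2 scale.

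Relb encodes the factor that pairs mostly with p52 in the noncanonical branch of the pathway. Relb had 51.1, 44.9 and 42.2 CPM with the inhibitor and 36.6, 35.8 and 41.4 CPM with control in reconstituted tumours. In knockout tumours it had 40.8, 41.9 and 36.3 CPM with the inhibitor and 40.8, 37.2 and 42.2 CPM with control. The reconstituted inhibitor libraries were higher than the reconstituted controls without overlap, by a narrow margin, and higher than the knockout inhibitor libraries. The log2 difference from control was 0.28 ± 0.10 (SE; edgeR adjusted p = 0.0893), and 0.20 without replicate 1 of the inhibitor group. In knockout tumours it was -0.01 ± 0.10 (adjusted p = 1), and the interaction was 0.29 ± 0.14 (adjusted p = 0.216), and 0.21 without that replicate 1. Without replicate 3 of the reconstituted inhibitor group, Relb passed in reconstituted tumours (0.34, adjusted p = 0.0265), beside 31% of all genes.

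Nfkbia, which encodes IkB alpha, the inhibitor that returns the factors to the cytoplasm, had 172, 109 and 110.5 CPM with the inhibitor in reconstituted tumours. It had 95.05, 86.5 and 99.7 CPM in reconstituted controls. In knockout tumours Nfkbia had 96.1, 114 and 103 CPM with the inhibitor and 112, 112 and 96.8 CPM with control. The reconstituted groups did not overlap, and replicate 1 of the inhibitor group was far above every other library. The log2 difference in reconstituted tumours was 0.48 ± 0.16 (SE; edgeR adjusted p = 0.0818) and 0.23 without that library. The interaction was 0.52 ± 0.23 (adjusted p = 0.188), and 0.27 without that library. Between reconstituted and knockout tumours under the inhibitor, the difference of Nfkbia was 0.33 ± 0.16 (adjusted p = 0.278), and 0.075 without that library. Without replicate 3 of the reconstituted inhibitor group, Nfkbia passed in reconstituted tumours (0.58, adjusted p = 0.0207), beside 31% of all genes.

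Tnfaip3, which encodes the ubiquitin-editing enzyme A20, a brake on signalling to the IkB kinases, had another pattern. It had 60.4, 38.4 and 64.3 CPM with the inhibitor and 53.0, 46.9 and 48.3 CPM with control in reconstituted tumours. In knockout tumours Tnfaip3 had 76.9, 60.7 and 59.0 CPM with the inhibitor and 87.5, 70.7 and 74.8 CPM with control. All 3 reconstituted controls were below all 3 knockout controls, and the groups under the inhibitor overlapped. Tnfaip3 was 1 of 2 members whose control groups did not overlap, beside 31.1% of all genes, the other being Nfkb1. The log2 difference between reconstituted and knockout controls was -0.65 ± 0.18 (SE; 95% interval -1.04 to -0.26; edgeR adjusted p = 0.160). Under the inhibitor it was -0.27 ± 0.18 (adjusted p = 0.388), and -0.35 without replicate 1 of the reconstituted inhibitor group. Averaged over treatments it was -0.46 ± 0.12 (adjusted p = 0.103), and -0.50 without that replicate 1. The inhibitor differences were 0.14 ± 0.18 in reconstituted tumours and -0.24 ± 0.18 in knockout tumours, with an interaction of 0.38 ± 0.25 (adjusted p = 0.348). Without that replicate 1, the difference in reconstituted tumours was 0.056 and the interaction 0.30.

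Birc3 encodes cIAP2, a ubiquitin ligase of the TNF receptor complex. It ranged from 24.6 to 31.1 CPM with the inhibitor and from 19.9 to 27.6 CPM with control in reconstituted tumours. In knockout tumours Birc3 ranged from 20.8 to 25.5 CPM with the inhibitor and from 21.1 to 23.6 CPM with control. The ranges overlapped in every comparison. The log2 difference was 0.29 ± 0.14 for the inhibitor in reconstituted tumours (SE; edgeR adjusted p = 0.173) and 0.29 ± 0.14 for reconstituted against knockout under the inhibitor (adjusted p = 0.272). Without replicate 1 of the reconstituted inhibitor group both were 0.30.

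Icam1, the adhesion molecule that leukocyte integrins bind, had 52.4, 30.2 and 39.7 CPM with the inhibitor in reconstituted tumours, a mean of 40.8 ± 11.1 CPM (SD, n = 3). It had 19.6, 18.7 and 32.9 CPM in reconstituted controls, a mean of 23.7 ± 7.96 CPM. In knockout tumours Icam1 had 16.6, 22.1 and 22.6 CPM with the inhibitor and 23.0, 17.3 and 20.5 CPM with control. Replicate 3 of the reconstituted controls overlapped with the inhibitor group, and all 6 knockout libraries lay below the 3 reconstituted inhibitor libraries. The inhibitor groups of the genotypes did not overlap for 20.7% of all genes. The share of genes split from both knockout groups was not counted. Between reconstituted and knockout tumours under the inhibitor, the log2 difference of Icam1 was 1.00 ± 0.25 (SE; 95% interval 0.45 to 1.54; edgeR adjusted p = 0.0875). It passed the threshold without replicate 3 of the reconstituted inhibitor group (1.01, adjusted p = 0.0396), where 2816 of all genes passed (15.4%), and without replicate 3 of the reconstituted controls (0.99, adjusted p = 0.0450), where 223 did (1.21%). Without replicate 1 of the reconstituted inhibitor group the difference was 0.78. The inhibitor difference of Icam1 was 0.78 ± 0.25 in reconstituted tumours (95% interval 0.24 to 1.32; adjusted p = 0.0766), and 0.56 without that replicate 1. In knockout tumours it was 0.01 ± 0.25 (95% interval -0.53 to 0.55; adjusted p = 1). The interaction of Icam1 was 0.77 ± 0.35 (adjusted p = 0.201), and 0.55 without that library. Averaged over treatments, the difference between reconstituted and knockout tumours was 0.61 ± 0.17 (adjusted p = 0.120), and 0.50 without that library.

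Tnf, the cytokine that both follows and triggers NF-kB activation, had 5.99, 4.19 and 4.37 CPM with the inhibitor in reconstituted tumours, a mean of 4.85 ± 0.99 CPM (SD, n = 3). It had 2.13, 1.74 and 3.99 CPM in reconstituted controls, a mean of 2.62 ± 1.20 CPM. In knockout tumours Tnf had 1.98, 2.69 and 2.53 CPM with the inhibitor and 3.64, 1.91 and 2.68 CPM with control. The 3 reconstituted inhibitor libraries were the 3 highest of the 12, and replicate 3 of the reconstituted controls came next. The reconstituted groups alone did not overlap for 29.5% of all genes. The share of genes with 1 group apart from all others was not counted. The inhibitor difference in reconstituted tumours was 0.89 ± 0.33 (log2 ± SE; 95% interval 0.17 to 1.60; edgeR adjusted p = 0.0957), and 0.71 without replicate 1 of the inhibitor group. In knockout tumours it was -0.19 ± 0.33 (adjusted p = 1). The interaction was 1.08 ± 0.46 (adjusted p = 0.181), and 0.90 without that replicate 1. Between reconstituted and knockout tumours under the inhibitor, the difference of Tnf was 1.01 ± 0.33 (95% interval 0.30 to 1.73; adjusted p = 0.141), and 0.83 without that replicate 1. Relb, Icam1 and Tnf were the 3 members whose inhibitor groups did not overlap between the genotypes, beside 20.7% of all genes.

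Il1a and Il1b encode the interleukin 1 cytokines, of which IL-1 beta is made as a precursor that caspase 1 cleaves. Il1a had 6.30, 2.71 and 3.95 CPM with the inhibitor and 4.56, 1.72 and 2.29 CPM with control in reconstituted tumours. In knockout tumours it ranged from 3.77 to 4.66 CPM with the inhibitor and from 4.05 to 4.88 CPM with control. Il1a overlapped between the reconstituted groups, with a log2 difference of 0.60 ± 0.36 (SE; edgeR adjusted p = 0.263), and 0.22 without replicate 1 of the inhibitor group. Il1b had 47.1, 36.5 and 36.2 CPM with the inhibitor and 34.9, 20.5 and 30.2 CPM with control in reconstituted tumours, where the groups did not overlap. In knockout tumours Il1b had 31.6, 39.6 and 44.0 CPM with the inhibitor and 47.3, 23.4 and 38.9 CPM with control. Its difference in reconstituted tumours was 0.49 ± 0.26 (adjusted p = 0.208), and 0.35 without that replicate 1. Under the inhibitor, the difference between reconstituted and knockout tumours was 0.04 ± 0.36 for Il1a (adjusted p = 0.959) and 0.06 ± 0.25 for Il1b (adjusted p = 0.914). Without that replicate 1 these were -0.34 and -0.078. In controls the difference was -0.67 ± 0.36 for Il1a (adjusted p = 0.332), the largest of the 10 members there in size, and -0.36 ± 0.26 for Il1b (adjusted p = 0.468), and the libraries of both genes overlapped.

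Across the 12 libraries, members went together unevenly. Tnf and Icam1 had the highest correlation of log2 CPM among the 45 pairs, with Pearson's r = 0.94, and 0.91 after each group's mean was removed. Relb and Tnf had r = 0.84 (0.68 within groups), and Birc3 and Icam1 had r = 0.82 (0.70 within groups). Il1a and Il1b had r = 0.69 (0.61 within groups), while Tnfaip3 and Icam1 had r = -0.26 (0.30 within groups). Without replicate 1 of the reconstituted inhibitor group, these correlations were 0.91 for Tnf and Icam1, 0.75 for Relb and Tnf, 0.85 for Birc3 and Icam1, 0.64 for Il1a and Il1b and -0.36 for Tnfaip3 and Icam1. The points share libraries and their cell make-up, so these values are descriptions without a test. The same holds for the genes most like each member among 12003 expressed genes. For Icam1 these were Trafd1 (r = 0.99) and Batf2 (0.99), for Tnf they were AW112010 (0.98) and Psmb9 (0.98), and for Birc3 Stat3 (0.95) and Gsap (0.94). Nfkb1 was most like Smcr8 (0.97) and Slc23a2 (0.97), Nfkb2 like Grk6 (0.89) and Vars (0.88), and Relb like Abhd16a (0.90) and Coa4 (0.90). Nfkbia was most like Nudt19 (0.96) and Adap1 (0.95), and Tnfaip3 like Klf6 (0.93) and Msmo1 (0.89). Il1a was most like Srek1ip1 (0.92) and Il34 (0.91), and Il1b like Cyb5d2 (0.89) and Cd83 (0.88).

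**Figure D3:**
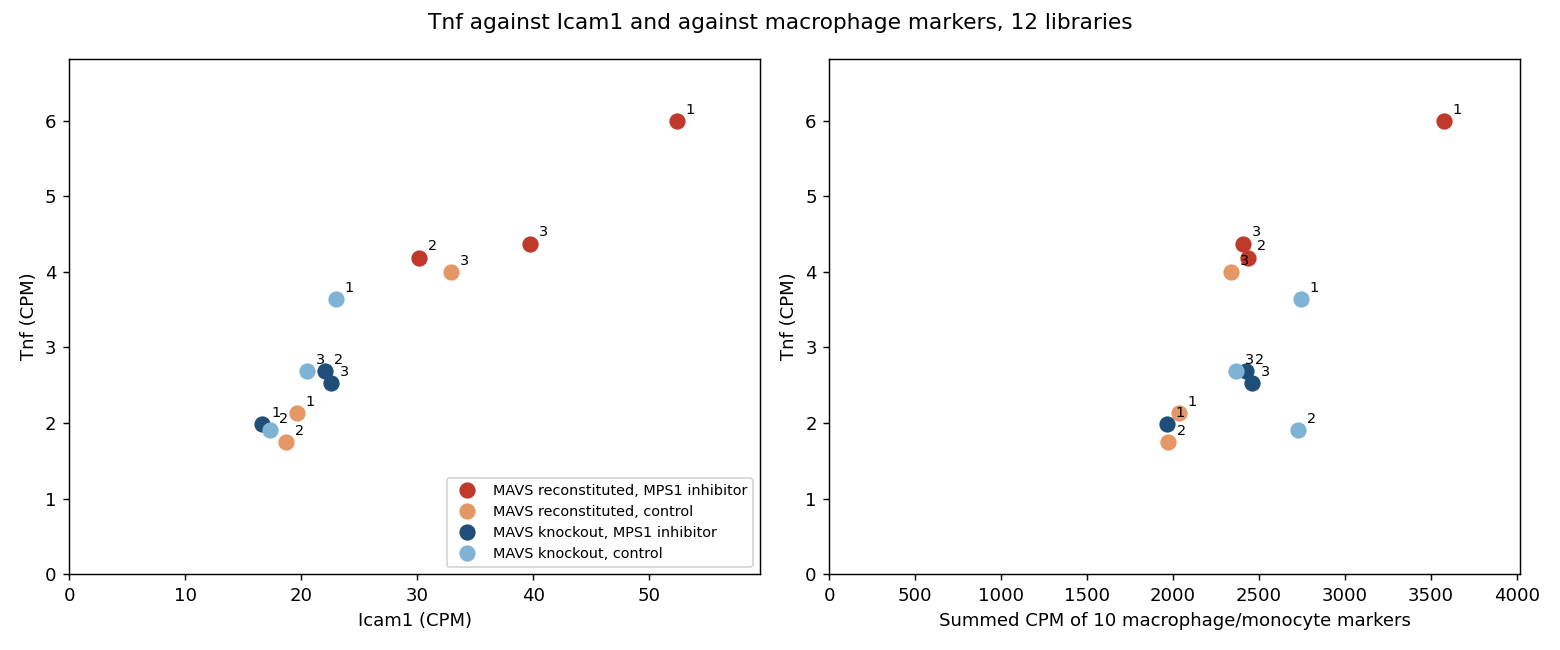
Tnf CPM (y axes) against Icam1 CPM (left) and against the summed CPM of 10 macrophage and monocyte markers (right) in 12 libraries, coloured by group and numbered by replicate. On the left the libraries lie along 1 band (r = 0.94 on log2 CPM). On the right replicates 1, 2 and 3 of the reconstituted inhibitor group have 5.99, 4.19 and 4.37 CPM of Tnf. Their marker sums are 3576, 2437 and 2409 CPM in that order.

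Cell type markers were set beside these 2 genes. The 10 macrophage and monocyte markers, all detected, summed to 3576, 2437 and 2409 CPM with the inhibitor and 2034, 1973 and 2338 CPM with control in reconstituted tumours. In knockout tumours they summed to 1964, 2424 and 2458 CPM with the inhibitor and 2744, 2725 and 2368 CPM with control. Replicate 1 of the reconstituted inhibitor group was the highest of all libraries in this sum, in Tnf and in Icam1. Replicates 1 and 2 of the knockout controls had higher sums than replicates 2 and 3 of the reconstituted inhibitor group, at lower Tnf and Icam1. The single markers went different ways between these groups. By group mean, Mrc1 (464 against 338 CPM) and Adgre1 (66.1 against 61.1 CPM) were higher in knockout controls, and Csf1r was 189 CPM in both. Cd68, C1qa, C1qb, C1qc, Lyz2, Cd14 and Fcgr1 were lower there, Fcgr1 at 29.4 against 59.0 CPM. These means include replicate 1 of the reconstituted inhibitor group. The 10 T and NK cell markers, all detected, summed to 29.3, 41.9 and 38.8 CPM with the inhibitor and 20.0, 18.3 and 33.5 CPM with control in reconstituted tumours. In knockout tumours they summed to 20.2, 20.5 and 28.0 CPM with the inhibitor and 25.7, 17.0 and 17.0 CPM with control. This sum was highest in replicates 2 and 3 of the reconstituted inhibitor group, followed by replicate 3 of the reconstituted controls. Replicate 1 of the inhibitor group, the library highest in Tnf and Icam1, came after it. Klrb1c had its highest group mean in reconstituted controls, at 3.08 against 2.97 CPM in the reconstituted inhibitor group. The other T and NK cell markers had theirs in the reconstituted inhibitor group. The 10 neutrophil markers summed to 44.0 to 81.8 CPM, highest in replicate 1 of the reconstituted inhibitor group. The single markers differed. Ltf had a mean of 11.7 CPM in the reconstituted inhibitor group, against 2.99 to 4.44 CPM in the others. S100a8, Csf3r and Ly6g also had their highest group means there. S100a9, Cxcr2, Retnlg and Mmp8 had theirs in knockout controls, and Camp and Ngp in the knockout inhibitor group. The part of these cells in the differences of Tnf and Icam1 was not tested.

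The rest of the pathway was read from 99 further genes in 5 lists, also chosen with earlier results of these data known. Of these genes 97 were tested, and Tnfrsf13c and Ccl20 fell below the count filter. For the inhibitor against control, 0 of 97 passed in reconstituted tumours and 0 of 97 in knockout tumours. The smallest p in reconstituted tumours belonged to Gadd45b, a stress-response gene (log2 0.59 ± 0.14), and Ier3, an immediate early target gene (0.89 ± 0.21), each with an edgeR adjusted p of 0.0729. Both passed without replicate 3 of the inhibitor group, at adjusted p = 0.0150 and 0.00662 and beside 31% of all genes, and without its replicate 1 they were 0.62 and 0.74. In knockout tumours the smallest belonged to Ier3 (-0.69 ± 0.21) and Nfkbiz (-0.32 ± 0.12), each with an adjusted p of 1. Averaged over genotypes, the smallest belonged to Gadd45b (0.30 ± 0.10) and Ccrl2 (0.73 ± 0.25), each at 0.522. Of the 33 tested target genes outside the 10 members, 26 were positive in reconstituted tumours with a median of 0.46, and 10 in knockout tumours with a median of -0.20. Without replicate 1 of the reconstituted inhibitor group, 23 were positive in reconstituted tumours, with a median of 0.31. The other lists moved less. In reconstituted tumours 3 of 5 factors and nuclear IkB proteins were positive (median 0.05), and 4 of 11 cytoplasmic IkB proteins and kinases (-0.08). So were 20 of 32 receptors, ligands and adaptors (0.14) and 7 of 16 ubiquitin and feedback regulators (-0.02). Over all 97, 60 were positive with a median of 0.17, beside -0.005 over all genes. For the interaction, 0 of 97 passed. Of the 33 target genes 27 were positive with a median of 0.78, and 26 with a median of 0.55 without replicate 1 of the reconstituted inhibitor group. Set directly against knockout tumours under the inhibitor, 20 of these 33 were higher in reconstituted tumours, with a median of 0.15. Without that replicate 1, 17 were higher, with a median of 0.085. Averaged over treatments 16 were higher, with a median of -0.06. The interaction medians of the other lists were 0.24 for factors and nuclear IkB proteins and -0.02 for cytoplasmic IkB proteins and kinases. They were 0.17 for receptors, ligands and adaptors and -0.03 for ubiquitin and feedback regulators. Over all 97, 65 were positive with a median of 0.24, beside 0.005 over all genes. The interaction of Ier3 was 1.59 ± 0.29 and that of Ccl4, a chemokine, 1.98 ± 0.57, each at an adjusted p of 0.144, and both passed without replicate 3 of the reconstituted inhibitor group (0.0136 and 0.0392), in a fit that called 4005 of all genes (21.9%). Without its replicate 1 these interactions were 1.44 and 1.78.

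Genotype differences did pass for single pathway genes. Under the inhibitor, 2 of 97 were higher in reconstituted than in knockout tumours and 0 lower, beside 0.649% of all genes called. Tnfrsf1b, the second receptor for TNF, had 123, 102 and 115 CPM in reconstituted and 74.5, 79.7 and 76.2 CPM in knockout inhibitor libraries (log2 0.56 ± 0.10, SE; edgeR adjusted p = 0.0321). Rnf31, which encodes HOIP, the catalytic subunit of the linear ubiquitin ligase, had 47.7, 32.8 and 36.7 CPM in reconstituted and 20.3, 23.1 and 20.3 CPM in knockout inhibitor libraries (0.88 ± 0.17, adjusted p = 0.0462). Both pairs of groups were apart, as were those of 20.7% of all genes in this comparison. These calls depended on single libraries: with 1 of the 12 libraries left out, Tnfrsf1b passed in 6 of 12 fits and Rnf31 in 4 of 12. Rnf31 passed only without replicate 2 or 3 of a reconstituted group, and Tnfrsf1b only without one of these or without replicate 2 or 3 of the knockout controls. The highest adjusted p were 0.183 for Tnfrsf1b and 0.215 for Rnf31. Without replicate 1 of the reconstituted inhibitor group, Tnfrsf1b was 0.50 (adjusted p = 0.108) and Rnf31 0.71 (0.139). With only the 6 libraries compared in the fit, both had an adjusted p of 0.0867.

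In control tumours, 0 of 97 were higher and 1 lower, beside 0.14% of all genes called. Ier3 had 45.7, 44.6 and 43.9 CPM in reconstituted controls and 166, 167 and 108 CPM in knockout controls, a log2 difference of -1.71 ± 0.21 (SE; edgeR adjusted p = 0.0137). The groups were far apart, and the reconstituted controls were within 2 CPM of each other. The control groups did not overlap for 31.1% of all genes. The call held in 8 of 12 fits with 1 library left out. It was lost without replicate 2 of the knockout controls (adjusted p = 0.0873) and without replicate 1, 2 or 3 of the reconstituted controls (0.0759, 0.0508 and 0.0592). With the inhibitor, Ier3 had 99.5, 84.6 and 65.0 CPM in reconstituted and 69.0, 109.7 and 93.3 CPM in knockout tumours, which overlapped. Of the 33 target genes, 7 were positive in control tumours, with a median of -0.26. Over all 97 pathway genes, 43 were positive there, with a median of -0.02.

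Averaged over treatments, 3 of 97 pathway genes were higher in reconstituted than in knockout tumours and 3 lower, beside 1.56% of all genes called. N4bp1, a restraint on NF-kB signalling in mouse macrophages, was higher by 0.46 ± 0.08 (log2 ± SE; edgeR adjusted p = 0.0138), Tnfrsf1b by 0.37 ± 0.07 (0.0265) and Rnf31 by 0.61 ± 0.12 (0.0300). Ier3 was lower, at -0.92 ± 0.15 (0.0116), as was Bcl10, the adaptor that joins antigen receptors to the IkB kinases, at -0.32 ± 0.06 (0.0319). Plau, which encodes the protease urokinase, was lower as well, at -0.73 ± 0.15 (0.0337). All 6 passed without replicate 1 of the reconstituted inhibitor group, with adjusted p from 0.0119 to 0.0483. For N4bp1, Rnf31 and Bcl10, of these 6 genes, all 6 reconstituted libraries lay on 1 side of all 6 knockout libraries, as they did for 2.11% of all genes and for none of the 10 members. With 1 library left out, Ier3 passed in 12 of 12 fits and N4bp1 in 11, missing without replicate 1 of the knockout inhibitor group (adjusted p = 0.0512). Tnfrsf1b and Rnf31 passed in 6 of 12, Bcl10 in 4 and Plau in 3, with highest adjusted p of 0.0782, 0.0899, 0.0951 and 0.0934 in that order. Rnf31 passed only without a library of a reconstituted group. Tnfrsf1b passed only without replicate 1 or 2 of the reconstituted controls, a replicate of the reconstituted inhibitor group, or replicate 3 of the knockout controls. Bcl10 passed only without replicate 2 of the knockout controls, replicate 1 of the reconstituted controls, or replicate 1 or 3 of the reconstituted inhibitor group. Plau passed only without replicate 3 of the knockout controls or replicate 1 or 2 of the reconstituted inhibitor group.

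**Figure D4:**
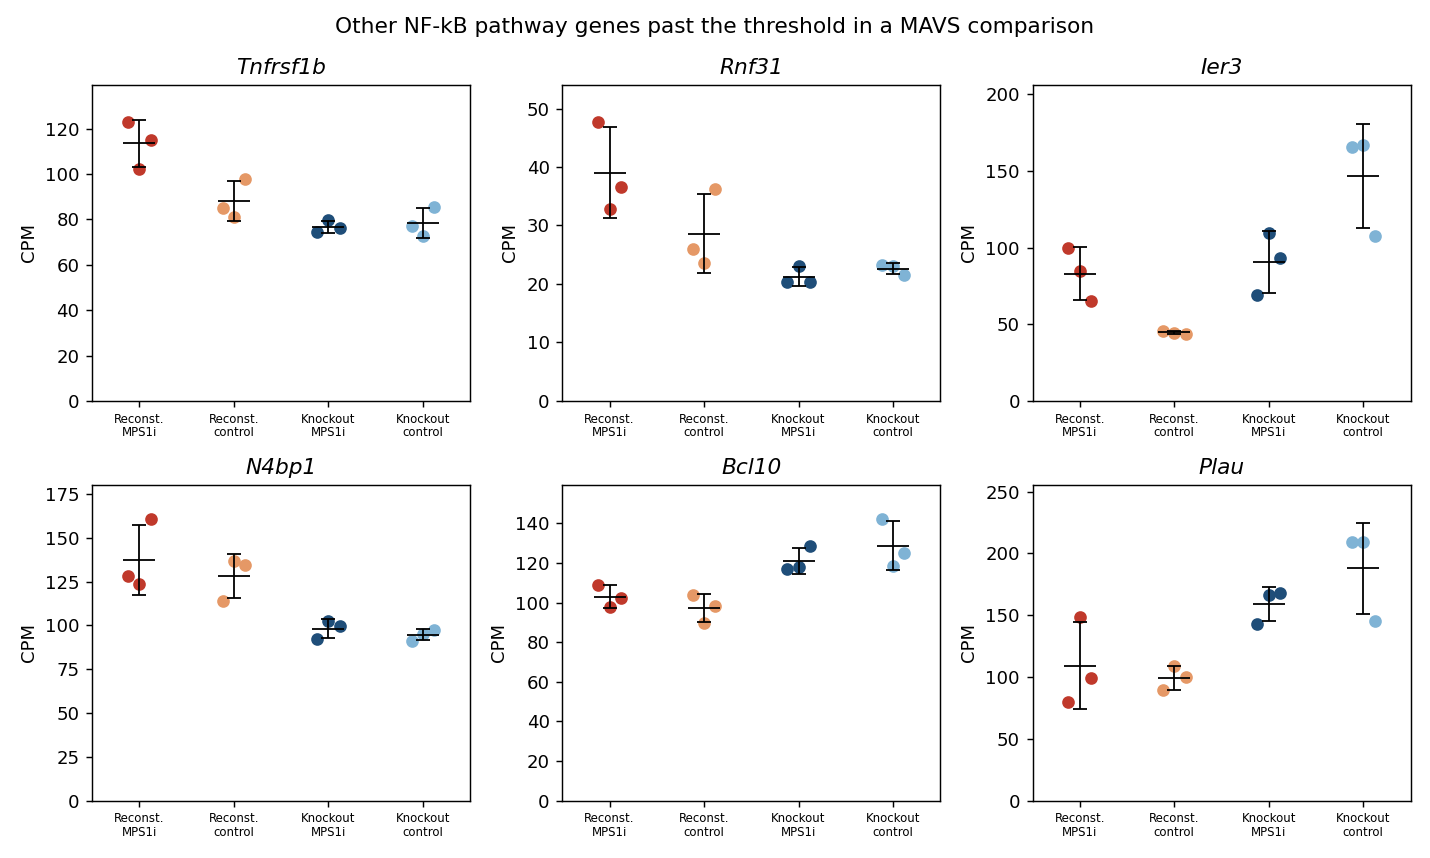
CPM (y axes, linear from 0) of the 6 further pathway genes that passed in a comparison of reconstituted with knockout tumours, in the 4 groups of 3 libraries. Points are libraries in the order of replicate numbers and bars give mean ± SD. Ier3 has its highest mean, 147 CPM, in knockout control tumours and its lowest, 44.7 CPM, in reconstituted controls, while Tnfrsf1b, Rnf31 and N4bp1 have their highest means in the reconstituted inhibitor group.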

How the data were processed

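RNA was measured in 12 tumour libraries in 4 groups of 3. The labels' protocols give column extraction of RNA, DNase digestion and a stranded mRNA kit. Named in the submitters' processing notes, with no version or role, are Trimmomatic, HISAT2, StringTie and GRCm38 (mm10). The values deposited by the authors are whole-number counts per gene with no strand or mate setting given.

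Counts were analysed with edgeR 4.0.16 in R 4.3.3. A mean was fitted for each of the 4 groups to all 12 libraries at once. The filterByExpr function left 17885 genes, TMM factors were 0.920 to 1.03, and glmQLFTest p-values were adjusted over all genes. The SE is the log2 difference over the square root of F, and 95% intervals use the test's degrees of freedom. CPM were computed from the counts with TMM library sizes, and log2 CPM with a prior count of 2. Exon lengths came from GENCODE M21. Of the 45777 gene IDs, 45679 were found in RefSeq. No pair of libraries in a group agreed within sampling noise (smallest chi-square per gene 32.5). The procedure was also run on simulated counts with a common mean per gene and changes set only in the reconstituted inhibitor group. These held no outlying library and no shared cell make-up, so the run does not bear on calls that depended on single libraries.

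Alternatives were RLE factors, DESeq2 1.42.0, limma-voom (limma 3.58.1), no low-count filter, a replicate block, only the libraries compared, and leaving out each library. All members were named. Other pathway genes were named where called (up to 6 with the smallest p in a comparison), otherwise the 2 with the smallest p. The members and gene lists were chosen with earlier results of these data known.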

Additional observations from a re-analysis of the deposited data

How the results depend on the processing

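The count of members passing was 0 in each of the 7 comparisons with edgeR under RLE factors, without the low-count filter, with a replicate block and, for the 4 comparisons of 2 groups, in fits of only the libraries compared, and likewise with limma-voom. DESeq2 gave 4 for the inhibitor in reconstituted tumours, 2 and 1 for reconstituted against knockout under the inhibitor and in controls, 2 for that difference averaged over treatments, and 0 elsewhere. With 1 library left out, 0 to 3 passed for the inhibitor in reconstituted tumours, 0 to 1 for reconstituted against knockout under the inhibitor, and 0 in the other 5 comparisons. The 3 (Nfkb1, Relb and Nfkbia) came without replicate 3 of the reconstituted inhibitor group, where Nfkb1 was -0.21 (adjusted p = 0.0377). That setting also gave the largest number of genes called in that comparison, 5683, where none was called with all libraries. The cause was not tested. Same-numbered libraries deviated together (correlation above 0.1) in 9 of 18 pairs, with correlations from -0.11 to 0.31. These values do not settle whether the numbers pair the libraries, and the main fit did not pair them. The replicate block left 43 genes called for reconstituted against knockout under the inhibitor, against 116 without it, and 15 in controls, against 25. Under it Tnfrsf1b and Rnf31 had an adjusted p of 0.0564 and 0.0924 in the first of these, and Rnf31 0.0648 averaged over treatments. DESeq2 called 1243, 827 and 1020 genes for reconstituted against knockout under the inhibitor, in controls and averaged, 1365 for the interaction, 3 for the inhibitor in knockout tumours and 1 averaged over genotypes. limma-voom called 15 in controls and 1 for the inhibitor in knockout tumours, and fits of only the libraries compared called 64 under the inhibitor, 10 in controls and 1 for the inhibitor in reconstituted tumours.

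No member passed in the main edgeR fit of all libraries, so every sign change concerned a difference that did not pass there. The inhibitor difference of Nfkb1 in reconstituted tumours passed at -0.21 without replicate 3 of the inhibitor group, and was 0.022 without its replicate 2. For reconstituted against knockout under the inhibitor, Il1a was -0.067 with limma-voom and -0.061 with the replicate block. Without the low-count filter Birc3 was 0.0011 for the inhibitor in knockout tumours and 0.0012 for the genotypes in controls, and the interaction of Nfkb2 was -0.011. With 1 library left out, the inhibitor difference in reconstituted tumours ran from -0.21 to 0.022 for Nfkb1, -0.023 to 0.12 for Nfkb2 and -0.0038 to 0.34 for Tnfaip3. In knockout tumours it ran from -0.027 to 0.065 for Nfkb2, -0.066 to 0.045 for Relb, -0.11 to 0.018 for Nfkbia, -0.10 to 0.051 for Birc3, -0.090 to 0.14 for Icam1, -0.40 to 0.065 for Tnf and -0.17 to 0.30 for Il1b. For reconstituted against knockout under the inhibitor it ran from -0.067 to 0.17 for Nfkb1, -0.34 to 0.29 for Il1a and -0.078 to 0.17 for Il1b, and in controls from -0.038 to 0.10 for Nfkb2, -0.17 to 0.075 for Birc3, -0.079 to 0.37 for Icam1 and -0.50 to 0.19 for Tnf. The interaction of Nfkb2 ran from -0.060 to 0.077. Averaged over treatments, Nfkbia ran from -0.058 to 0.12, and averaged over genotypes the inhibitor difference ran from -0.084 to 0.029 for Nfkb1 and -0.12 to 0.046 for Tnfaip3. Tnf and Il1a had the lowest counts of the members, down to 113 and 122 in a library.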
